A study of Homo sapiens with 4 samples.

Results

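Receptor tyrosine kinases, their ligands and the genes that ERK signalling switches on or uses to restrain itself were examined in TOV112D cells given HOXD10 by plasmid (HD) and in control cells (ND). The members were 51 genes given by symbol, 24 receptors, 11 ligands, 9 feedback inhibitors and 7 immediate early and ETS genes, and every probe that the platform annotation gives 1 of these symbols was taken. AREG had no named probe, so 50 genes with 81 probes were followed, of 19090 named genes and 28264 probes. TOV112D is an established human epithelial ovarian cancer cell line. ND cells carried no added HOXD10, and the study's figure legends describe them as receiving the control plasmid and its methods as mock-transfected. HD cells were transfected with HOXD10-pCDNA, with no selection step named in the methods, so an array reads cells that took up the plasmid together with cells that did not. The methods state that most cells were transfected by the time of the assays. Total RNA of each group was Cy5-labelled and read on 2 single-colour whole-genome arrays, and no source says whether the 2 arrays came from separate transfections. The p-values therefore rest on the differences between arrays of 1 group, and these differences may be only technical.

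A receptor tyrosine kinase carries a ligand-binding domain outside the cell and a kinase domain inside it. Ligand binding joins receptors into pairs that phosphorylate each other, and adaptors such as GRB2 then pass the signal through RAS, RAF and MEK to the kinase ERK. ERK induces transcription factors of the FOS, JUN, EGR and ETS families within minutes, and it also induces its own inhibitors, among them dual-specificity phosphatases (DUSPs), Sprouty (SPRY) and SPRED proteins. In epithelial ovarian cancer this network includes ERBB receptors fed by neuregulin and MET fed by hepatocyte growth factor.

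The deposited values are normalized intensities on a linear scale, none of them below 50, and all log2 fold changes below are HD minus ND. The probe for HOXD10 stood at 50 on all 4 arrays, and the part of the transcript it reads was not analysed here, so it gives no check of the transfection. The study itself reported higher HOXD10 mRNA by qPCR and higher protein by western blot in TOV112D cells given the plasmid. Of 81 member probes, 15 were at 50 on every array, against 3409 of all 28264 probes. Of 9 epithelial marker genes, KRT7 and CDH1 were at 50 throughout and 7 were above 50 on at least 1 array. KRT8 was at 50 on both ND arrays and at 99.4 and 103 in HD cells, EPCAM was between 360 and 1767, KRT18 between 254 and 447, KRT19 between 297 and 737, CLDN3 between 385 and 450 and MUC1 between 325 and 1059. CLDN4 gave 101 and 92.8 in ND and 62.0 and 57.5 in HD cells. Of the 10 epithelial probes 2 were called higher in HD cells, for KRT8 and EPCAM, and 2 lower, for KRT19 and CLDN4. The 8 probes above 50 had a median log2 fold change of 0.61. Of 7 genes of ovarian and Müllerian tumours, MUC16 was at 50 throughout, and PAX8 was at 50 on both HD arrays. The brightest probe of this list, for FOLR1, gave 595 and 801 in ND and 402 and 416 in HD cells. None of the 9 probes of the list was called. The mesenchymal filament gene VIM was between 227787 and 334580. Of 9 mesenchymal probes 2 were called higher and 0 lower, for FN1 from 5237 and 6098 to 12942 and 12555 and for COL1A2 from 50 on both ND arrays to 74.8 and 71.5. Of 5 leukocyte probes, 1 was called, for PTPRC at 81.1 and 99.1 in ND and 277 and 250 in HD cells. The other PTPRC probe was at 50 throughout, and CD3E stayed between 50 and 53.9. CD14 gave 803 and 888 in ND against 543 and 759 in HD cells. ITGAM gave 359 and 103 in ND against 63.7 and 63.4 in HD cells, and neither was called. Of 4 endothelial probes none was called. Genes with long transcripts, a list added after the data were seen and whose signal can move with RNA quality, had 10 of 54 probes called higher by limma and 0 lower (adjusted p under 0.05), with a median log2 fold change of 0.38 over 47 probes above 50. That is 18.5% higher and 0% lower, against 6.65% and 7.19% of all probes. The part of these marker and transcript-length differences in the values below was not tested.

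Most of the 81 member probes did not pass the test between HD and ND cells, and the largest log2 fold changes in size were those of NRG1. With p adjusted over all probes by limma and a threshold of 0.05, 6 member probes were higher in HD cells and 10 were lower. That is 7.41% and 12.3% of the member probes, against 6.65% and 7.19% of all probes called higher and lower. Among the 66 member probes above 50 on at least 1 array the shares were 9.09% and 15.2%, against 7.56% and 8.18% of the 24855 such probes on the array. The neuregulin gene NRG1 alone supplied 5 of the 10 lower probes, and without its probes 6.67% of the remaining 75 were lower, close to the share over all probes. Counted as genes, 6 of 50 had a higher probe, 6 had a lower probe and 39 had neither, while ERBB3 had 1 of each. The study counted a probe as changed at 2-fold or more with an unadjusted p under 0.05. Here these cut-offs were applied to the p of limma and not to the study's own p-values. A probe said to meet the study's criteria is therefore not shown to be on the study's own list. By these criteria 8 of the 81 member probes were higher and 8 lower, against 6.11% and 6.27% of all probes, or 6.95% and 7.13% of those above 50 on at least 1 array. Without the probes of NRG1, 8 of the remaining 75 were higher and 3 lower. The median log2 fold change over the 66 member probes above 50 on at least 1 array was -0.01, beside -0.11 over all 24855 such probes. Of the 16 calls, 5 were kept when eBayes of limma was run in its robust form, those of 3 NRG1 probes, FGF2 and SPRY1. The other calls, which include HGF, PDGFC, MET, DDR2, RET, ERBB3, SPRY4 and IER3, ended there. Of the 5 kept calls, those of the first NRG1 probe and SPRY1 rest on HD values at or next to 50. The lowest value limits the spread between arrays there, so these p-values do not measure it fully. Without any 1 of the 4 arrays, none of the 16 probes passed, nor did any other probe on the array, and all 16 kept their direction.

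**Figure D1:**
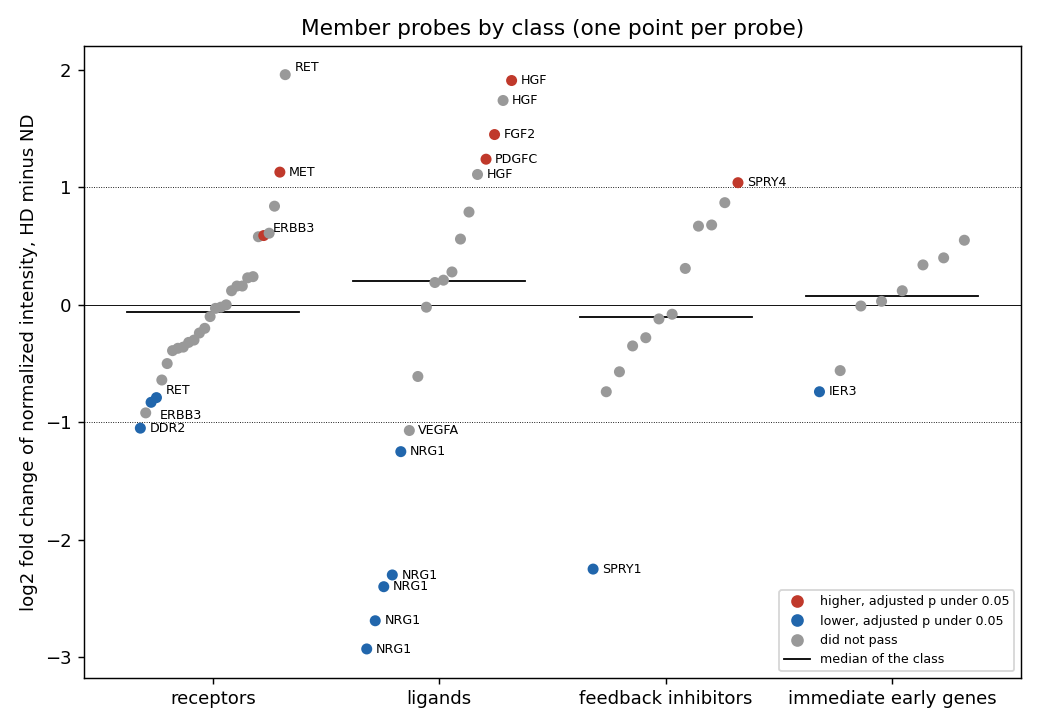
Log2 fold change of normalized intensity, HD minus ND, for the 66 member probes above 50 on at least 1 array, by class, with red and blue points where limma gave an adjusted p under 0.05 and the class median as a black line. The medians were -0.06 for receptors, 0.20 for ligands, -0.10 for feedback inhibitors and 0.08 for immediate early genes, and the points farthest below 0 were those of NRG1.

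Among the ligands, NRG1 fell in HD cells on 5 of its 6 probes. NRG1 encodes neuregulin 1, a ligand of ERBB3 and ERBB4 that is made in several isoforms. The fourth probe in order of identifier (PH_hs_0045630) gave 1917 and 2048 in ND cells against 270 and 249 in HD cells. The fifth (PH_hs_0045743) gave 1368 and 1610 in ND and 231 and 229 in HD cells. On both probes the HD arrays lay far below the ND arrays, with no overlap. The fourth probe was 7.64-fold lower (log2 fold change -2.93, standard error 0.0684, adjusted p = 0.0237 from limma), and the fifth was 6.45-fold lower (log2 fold change -2.69, standard error 0.106, adjusted p = 0.0289 from limma). The second probe gave 1512 and 1904 against 346 and 297, and the third gave 1856 and 2067 against 360 and 436. Their log2 fold changes were -2.40 and -2.30 (adjusted p = 0.0375 and 0.0351 from limma). The first probe, at 118 and 120 in ND cells, was at 50 on both HD arrays and so was at least 2.38-fold lower (adjusted p = 0.0229 from limma). The sixth probe (PH_hs_0048437) did not follow the others. It gave 953 and 704 in ND and 829 and 1083 in HD cells, groups that overlap, with a log2 fold change of 0.21 (adjusted p = 0.668 from limma). The 6 probes share a gene and are not replicates of one another, and which NRG1 transcripts each one reads was not analysed here. On such bulk RNA, fewer cells making a transcript and less of it per cell cannot be told apart.

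HGF, FGF2 and PDGFC rose. HGF encodes hepatocyte growth factor, the ligand of MET. Its probe PH_hs_0045633 gave 322 and 372 in ND cells against 1405 and 1198 in HD cells, and its log2 fold change was 1.91 (standard error 0.139, adjusted p = 0.0373 from limma). Both HD arrays lay far above both ND arrays. The other HGF probes were also higher on each HD array than on either ND array but did not pass. The first was at 50 on both ND arrays and at 133 and 208 in HD cells, and the second gave 54.7 and 67.7 against 139 and 125 (adjusted p = 0.0661 and 0.0554 from limma). These 2 probes met the study's criteria, with a fold of at least 3.33 for the first and a log2 fold change of 1.11 for the second. FGF2 encodes basic fibroblast growth factor, which acts through FGF receptors. Its second probe gave 477 and 497 in ND against 1390 and 1282 in HD cells and rose (log2 fold change 1.45, standard error 0.0592, adjusted p = 0.0296 from limma), and its first probe gave 80.2 and 77.8 against 107 and 175 and did not pass (adjusted p = 0.226 from limma). PDGFC, a ligand of PDGF receptors, gave 1706 and 1748 in ND against 4352 and 3817 in HD cells and rose (log2 fold change 1.24, standard error 0.0864, adjusted p = 0.0368 from limma). The groups did not overlap on any probe of these genes, including those that did not pass. With 2 arrays per group this was also so for other probes that did not pass, such as those of HBEGF and DUSP5. The share of such probes over the whole array was not counted, so a lack of overlap, here and for other genes, only describes the values.

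The remaining ligands did not pass. TGFA, which encodes the EGF receptor ligand TGF-alpha, gave 424 and 364 in ND and 264 and 251 in HD cells (log2 fold change -0.61, adjusted p = 0.0707 from limma). The probes of the angiogenic factor VEGFA lay on opposite sides of 0. Its first probe gave 132 and 104 against 50 and 62.7 and met the study's criteria with a log2 fold change of -1.07 (adjusted p = 0.0840 from limma), while its second gave 1600 and 1819 against 2740 and 2313 with a log2 fold change of 0.56 (adjusted p = 0.112 from limma). HBEGF, PDGFA and VEGFC had log2 fold changes of 0.28, 0.19 and -0.02. EREG was at 50 on all arrays. Over the class, 15.8% of 19 probes were called higher and 26.3% lower, against 6.65% and 7.19% of all probes, and all 5 lower calls were probes of the single gene NRG1.

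**Figure D2:**
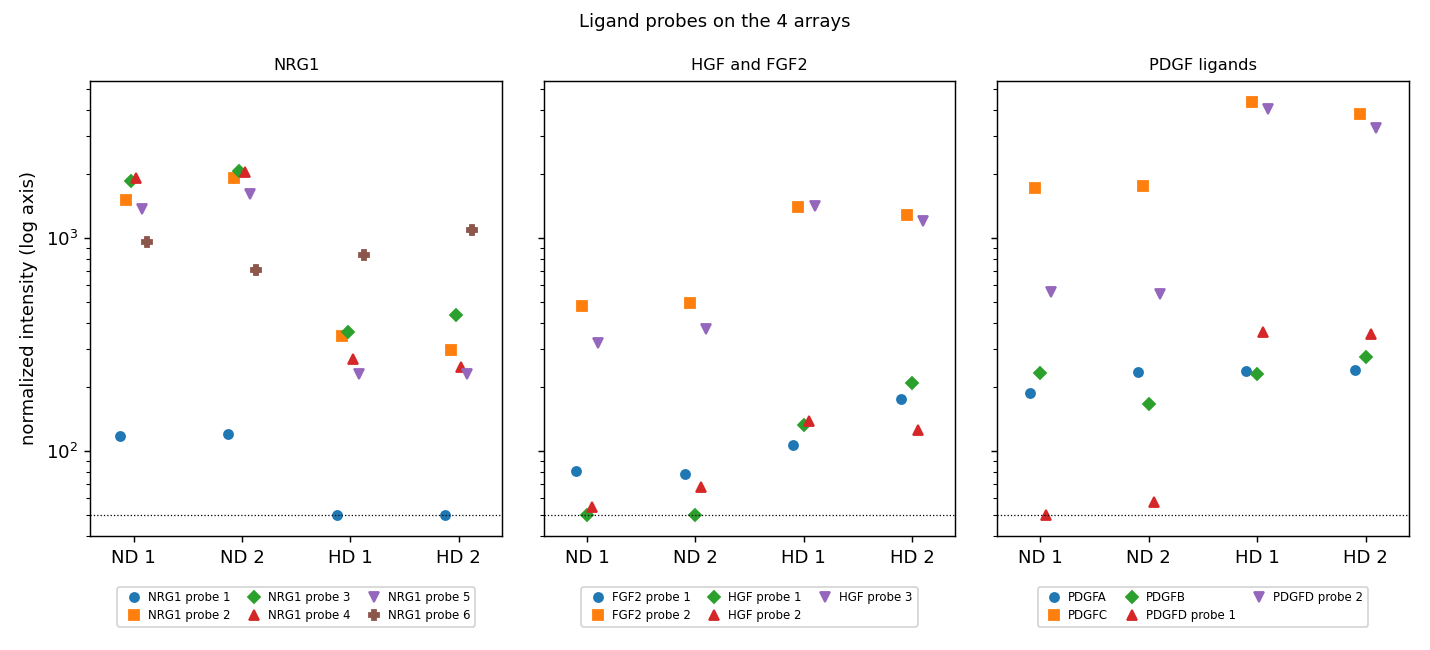
Normalized intensity on a log axis of the probes of NRG1, HGF, FGF2 and the PDGF ligands on each of the 4 arrays, 1 symbol per probe, with the lowest value of 50 as a dotted line; small sideways shifts only separate symbols, and levels are not comparable between probes. NRG1 probes 1 to 5 were lower on both HD arrays and probe 6 was not, while every HGF, FGF2, PDGFC and PDGFD probe was higher on both HD arrays.

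Of 42 receptor probes, 2 rose, 3 fell and 37 did not pass, which is 4.76% higher and 7.14% lower, against 6.65% and 7.19% of all probes. DDR2, a receptor for fibrillar collagen, gave 6032 and 5942 in ND cells against 3097 and 2703 in HD cells. Its log2 fold change was -1.05 (standard error 0.0886, adjusted p = 0.0400 from limma), with a 2.07-fold lower level and no overlap, and quantile and cyclic loess normalization gave -0.95 and -0.88. DDR1, the other collagen receptor of this family, gave 7535 and 10701 against 8559 and 8219, with overlapping groups. MET, the receptor for HGF, was at 50 on both ND arrays on its second probe and at 100 and 120 in HD cells, at least 2.20-fold higher (adjusted p = 0.0439 from limma). Its first probe stayed between 50 and 51.4 on all arrays, so the rise rests on 1 dim probe.

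ERBB3 and RET had probes that disagreed. ERBB3, the kinase-impaired neuregulin receptor that signals with ERBB2, rose on its first probe from 305 and 321 to 486 and 457 (log2 fold change 0.59, adjusted p = 0.0413 from limma). It fell on its second probe from 234 and 261 to 147 and 131 (log2 fold change -0.83, adjusted p = 0.0499 from limma). The third probe gave 209 and 91.6 against 85.8 and 112. No direction can be given for ERBB3 as a gene. RET, a receptor for the glial-derived neurotrophic factor family, fell on its first probe from 100 on each ND array to 59.5 and 56.0 in HD cells (log2 fold change -0.79, adjusted p = 0.0331 from limma), values close to the lowest of the table. Its second probe gave 89.6 and 52.7 in ND and 223 and 319 in HD cells, with a log2 fold change of 1.96 that met the study's criteria only (adjusted p = 0.0910 from limma). The lower calls of ERBB3 and RET did not pass after quantile normalization (adjusted p = 0.0788 and 0.112 from limma), and with a trended variance neither ERBB3 call passed.

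The other receptors were at the lowest value or did not pass. FGFR4, MST1R and ROR1 were at 50 on every probe and array. Of the 3 probes for EGFR, 2 were at 50 throughout, and the other was above it on ND replicate 1 alone, at 83.0. FGFR3 gave 3146 and 3748 in ND against 6032 and 6270 in HD cells, with a log2 fold change of 0.84, just outside the threshold (adjusted p = 0.0548 from limma). INSR, the insulin receptor, and ROR2, a receptor for Wnt ligands, had log2 fold changes of 0.58 and -0.36 (adjusted p = 0.0982 and 0.0830 from limma). ERBB2 gave 1749 and 1783 against 1593 and 1263, and the TAM receptors AXL, TYRO3 and MERTK had log2 fold changes of -0.03, 0.16 and 0.16. ERBB4, the other neuregulin receptor, was at 50 throughout on 2 of its 3 probes and gave 1646 and 2477 against 1770 and 1656 on the other, with overlapping groups. Of the 6 probes for the VEGF receptor FLT1, 3 were at 50 throughout and the others overlapped between groups. KIT and the PDGF receptor genes PDGFRA and PDGFRB had log2 fold changes of 0.23, 0.12 and 0.24, FGFR2 had 0.61 on the probe that was above 50 and KDR had -0.92, and none of them passed (lowest adjusted p = 0.218 from limma). Both FGFR1 probes had log2 fold changes below 0, at -0.39 and -0.30, and the first was at -0.06 after quantile and at 0.04 after cyclic loess normalization.

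Among the feedback inhibitors, the Sprouty genes did not move together. SPRY1 gave 257 and 228 in ND cells against 50 and 51.6 in HD cells, the lowest value of the table on HD replicate 1 and close to it on HD replicate 2. The fitted log2 fold change was -2.25 (standard error 0.0786, adjusted p = 0.0271 from limma), and its size is not measured exactly because the HD values lie at or next to the lowest value, with -1.53 when 50 was added before the log2. SPRY4 rose on its first probe from 416 and 421 to 897 and 824 (log2 fold change 1.04, standard error 0.0563, adjusted p = 0.0333 from limma). Its second probe gave 271 and 240 against 182 and 243, with overlapping groups and a log2 fold change of -0.28. SPRY2 gave 318 and 339 in ND and 470 and 590 in HD cells (log2 fold change 0.68, adjusted p = 0.0985 from limma). Sprouty proteins block the path from receptors to ERK, and SPRED proteins act on RAS and RAF. The probes of the SPRED genes had log2 fold changes above 0 without passing. These were 0.87 and 0.31 for the probes of SPRED1 and 0.67 for SPRED2 (adjusted p = 0.0834, 0.133 and 0.0889 from limma).

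The DUSP genes among the members, whose products dephosphorylate MAP kinases, lay below 0 and none passed. DUSP6, an ERK-specific phosphatase, gave 580 and 719 in ND and 337 and 444 in HD cells (log2 fold change -0.74, adjusted p = 0.154 from limma). DUSP4 had log2 fold changes of -0.57 and -0.12 on its probes, DUSP5 had -0.35 and DUSP1 had -0.08. The median over all probes above 50 on at least 1 array was -0.11. DUSP genes outside the members lay on both sides of 0 and none passed. The values were 0.84 and -0.95 for DUSP8, 0.23 for DUSP9, -0.03 for DUSP2 and -0.26 and -0.44 for DUSP7. Of the 12 probes of feedback inhibitors, 5 lay above 0 and 7 below, against 10417 above and 14438 below over the array.

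Upstream sequences are shown for HGF, a ligand that rose, and for SPRY1, which fell, and SPRY4, which rose on 1 of its 2 probes. Each is the 250 bases before a gene start of RefSeq on GRCh38.p14, 5′ to 3′ on the gene's strand. Capitals mark matches on either strand to TTTATNG, a core bound by posterior HOX proteins, to TGANTCA, the AP-1 site of FOS and JUN, or to CCGGAA, the core of ETS sites. The HGF window is at chr7:81770048-81770297, minus strand, the SPRY1 windows of 2 starts are at chr4:123396545-123396794, plus strand, and chr4:123398136-123398385, plus strand, and the SPRY4 window is at chr5:142324248-142324497, minus strand.
HGF: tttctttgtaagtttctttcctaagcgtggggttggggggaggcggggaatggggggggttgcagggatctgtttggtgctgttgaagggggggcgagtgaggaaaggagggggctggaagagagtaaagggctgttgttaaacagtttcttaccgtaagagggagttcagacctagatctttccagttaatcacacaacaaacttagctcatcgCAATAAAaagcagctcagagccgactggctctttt
SPRY1 first start: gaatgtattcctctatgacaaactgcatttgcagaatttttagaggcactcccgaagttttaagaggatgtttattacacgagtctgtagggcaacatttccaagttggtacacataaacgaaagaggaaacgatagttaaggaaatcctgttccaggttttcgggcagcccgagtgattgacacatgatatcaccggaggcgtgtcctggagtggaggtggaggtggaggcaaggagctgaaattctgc
SPRY1 second start: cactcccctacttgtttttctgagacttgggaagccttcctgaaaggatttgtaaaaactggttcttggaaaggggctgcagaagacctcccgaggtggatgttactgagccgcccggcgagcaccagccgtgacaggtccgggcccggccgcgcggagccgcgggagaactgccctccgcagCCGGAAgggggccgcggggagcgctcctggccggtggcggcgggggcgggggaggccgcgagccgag
SPRY4: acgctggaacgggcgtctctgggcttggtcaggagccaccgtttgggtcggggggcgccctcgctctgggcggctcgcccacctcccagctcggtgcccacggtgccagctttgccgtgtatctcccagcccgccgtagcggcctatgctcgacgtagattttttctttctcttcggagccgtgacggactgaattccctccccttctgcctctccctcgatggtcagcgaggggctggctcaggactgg
HGF held 1 match to TTTATNG, read on the opposite strand, and the second start of SPRY1 held 1 match to CCGGAA, while the first start of SPRY1 and SPRY4 held none of the 3 motifs. The window of FGF2, a ligand that also rose, is not shown and held none of the 3 motifs either. Of 35116 upstream windows of the same length, 8.93% held TTTATNG, 6.57% held TGANTCA and 14.5% held CCGGAA. Among the 67 windows of the 40 members with a RefSeq entry in the table, the shares were 10.4%, 7.46% and 13.4%. Such a match is a description of letters and not a bound site.

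**Figure D3:**
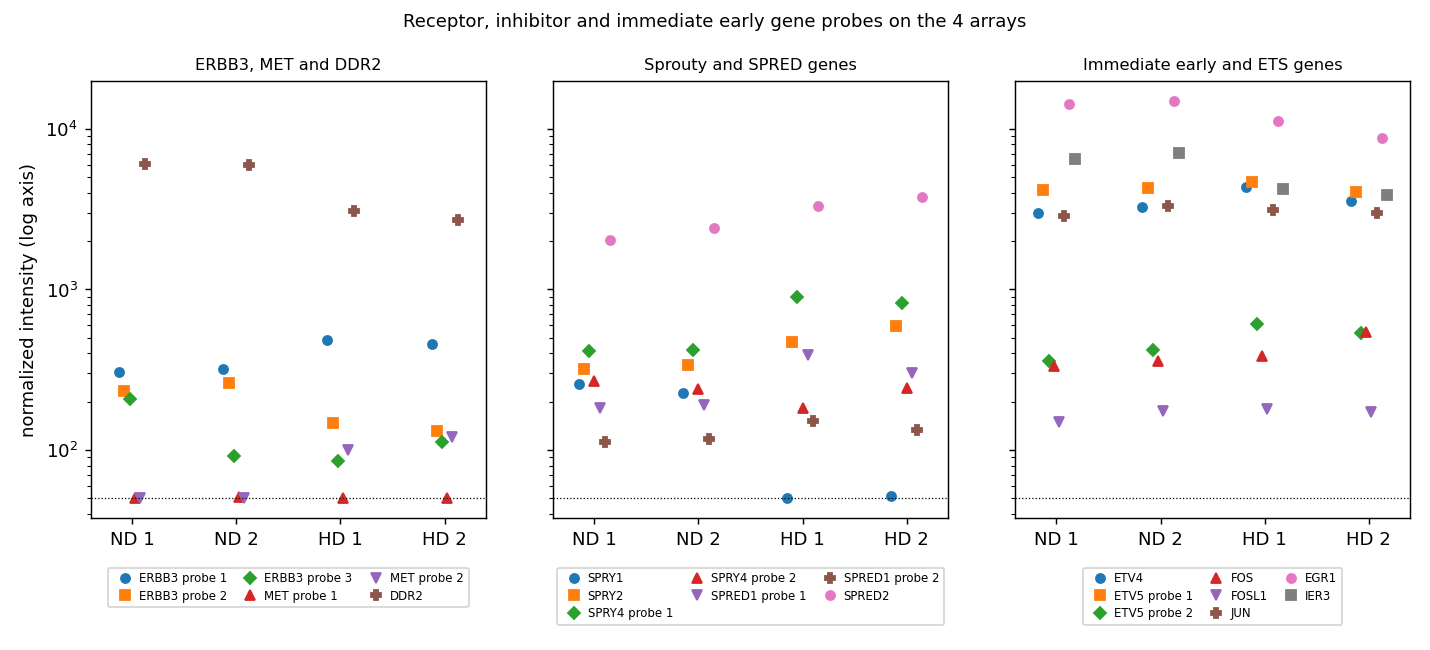
Normalized intensity on a log axis on each of the 4 arrays for probes of 3 receptors, of the Sprouty and SPRED genes and of the immediate early and ETS genes, 1 symbol per probe, with the lowest value of 50 as a dotted line; levels are not comparable between probes. DDR2 and SPRY1 were lower and SPRY4 probe 1 was higher on both HD arrays, the ERBB3 probes diverged, and IER3 was the immediate early gene with an adjusted p under 0.05.

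Of the immediate early and ETS genes, 1 of 7 fell and none rose. That is 0% of their 8 probes higher and 12.5% lower, against 6.65% and 7.19% of all probes. IER3, an early response gene linked to cell survival, gave 6456 and 7071 in ND and 4252 and 3866 in HD cells. Its log2 fold change was -0.74 (standard error 0.0854, adjusted p = 0.0478 from limma), and quantile and cyclic loess normalization gave -0.59 and -0.51. Bright probes lay below 0 over the whole array, with a median log2 fold change of -0.31 over the 2873 probes between 12 and 14 in mean log2 intensity, to which IER3 belongs. EGR1, a zinc finger factor induced by ERK, gave 14331 and 14929 against 11210 and 8788 (log2 fold change -0.56, adjusted p = 0.140 from limma), and it was at -0.26 and -0.15 after quantile and cyclic loess normalization. FOS and JUN, the partners of AP-1, had log2 fold changes of 0.40 and -0.01, and FOSL1 had 0.12. The ETS factors ETV4 and ETV5, transcripts that follow FGF and ERK signalling, had log2 fold changes of 0.34 for ETV4 and of 0.03 and 0.55 for the probes of ETV5, and neither passed (lowest adjusted p = 0.112 from limma).

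Other genes of the pathway, from lists that held none of the members, changed in both directions. Of the 20 calls in these lists, 3 were kept with robust eBayes of limma, those of PDGFD probe 1, RPS6KA3 and NF1 probe 1, and the other calls ended there. PDGFD probe 1 and NF1 probe 1 had ND values at or near 50, which limits the spread behind their p-values. Of 35 probes for 22 other ligands, 3 rose and 2 fell. That is 8.57% and 5.71%, close to the 6.65% and 7.19% of all probes. PDGFD, a ligand of PDGF receptors like PDGFC, rose on both of its probes, from 50 and 57.7 to 362 and 355 and from 558 and 546 to 4024 and 3284. The fitted log2 fold changes were 2.74 and 2.72 (adjusted p = 0.0268 and 0.0317 from limma). The first is not measured exactly, since its ND arrays lie at or near the lowest value, and was 1.98 with 50 added before the log2. KITLG, the ligand of KIT, fell from 1848 and 2004 to 805 and 845 on its second probe (log2 fold change -1.22, adjusted p = 0.0331 from limma), with -0.15 on its first. FGF1 fell by 1.29 on the log2 scale on 1 of its 4 probes, and PROS1, a ligand of TAM receptors, rose by 0.91 (adjusted p = 0.0369 and 0.0332 from limma). Of 26 probes for 16 other receptors, LTK alone passed, with a log2 fold change of 0.56 at levels between 69.0 and 107. That is 3.85% higher and 0% lower.

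In the cascade from adaptors to ERK and its kinase targets, 2 of 30 probes rose and 4 fell. That is 6.67% and 13.3%, against 6.65% and 7.19% of all probes. For want of a named probe, 6 of 27 genes of the list were not analysed here. SHOC2, a scaffold that promotes RAF activation, rose from 1614 and 2078 to 6435 and 6766 (log2 fold change 1.85, standard error 0.166, adjusted p = 0.0413 from limma). MAPK3, which encodes ERK1, fell from 4616 and 5305 to 2176 and 2266 (log2 fold change -1.16, standard error 0.0938, adjusted p = 0.0394 from limma). RPS6KA3, a kinase that ERK activates, rose by 1.03 on its second probe (adjusted p = 0.0241 from limma). Its first probe gave 81.1 and 103 against 264 and 221 and met the study's criteria with 1.40 (adjusted p = 0.0542 from limma). The RAS-related GTPase RRAS fell by 0.88 (adjusted p = 0.0394 from limma), with values of -0.59 and -0.49 after quantile and cyclic loess normalization. PTPN11, a phosphatase that carries receptor signals to RAS, gave 3842 and 4301 against 11411 and 8916 and met the study's criteria with a log2 fold change of 1.31 (adjusted p = 0.0532 from limma).

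Of 35 probes for 21 other inhibitors, 3 rose and 2 fell. That is 8.57% and 5.71%, close to the 6.65% and 7.19% of all probes. ERRFI1, which binds and inhibits EGF receptor family kinases, fell from 921 and 978 to 314 and 266 (log2 fold change -1.72, adjusted p = 0.0360 from limma). SOCS3, an inhibitor of cytokine receptor signalling, fell from 3417 and 3536 to 1116 and 943 on its second probe (log2 fold change -1.76, adjusted p = 0.0357 from limma), with -0.15 on its first. NF1, which switches RAS off, rose on 2 of its 3 probes, from 663 and 785 to 1683 and 1530 on the third probe (log2 fold change 1.15, adjusted p = 0.0454 from limma) and by at least 1.38-fold on the first (adjusted p = 0.0331 from limma). The second probe of NF1 was at 0.29 without passing. SOCS5 rose by 0.72 on its second probe (adjusted p = 0.0387 from limma), and its first was at 0.96 without passing (adjusted p = 0.0646 from limma). Of 33 probes for 24 other ERK-responsive genes, 3 rose and 0 fell, which is 9.09% and 0%. The 3 were 2 probes of the ETS factor ELK4 and the probe of ATF3, a stress-induced factor. ELK4 rose by 1.33 and 1.10 on the second and the third probe, with -0.94 on its first (adjusted p = 0.0370, 0.0349 and 0.0974 from limma), and ATF3 rose by 0.90 (adjusted p = 0.0466 from limma).

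**Figure D4:**
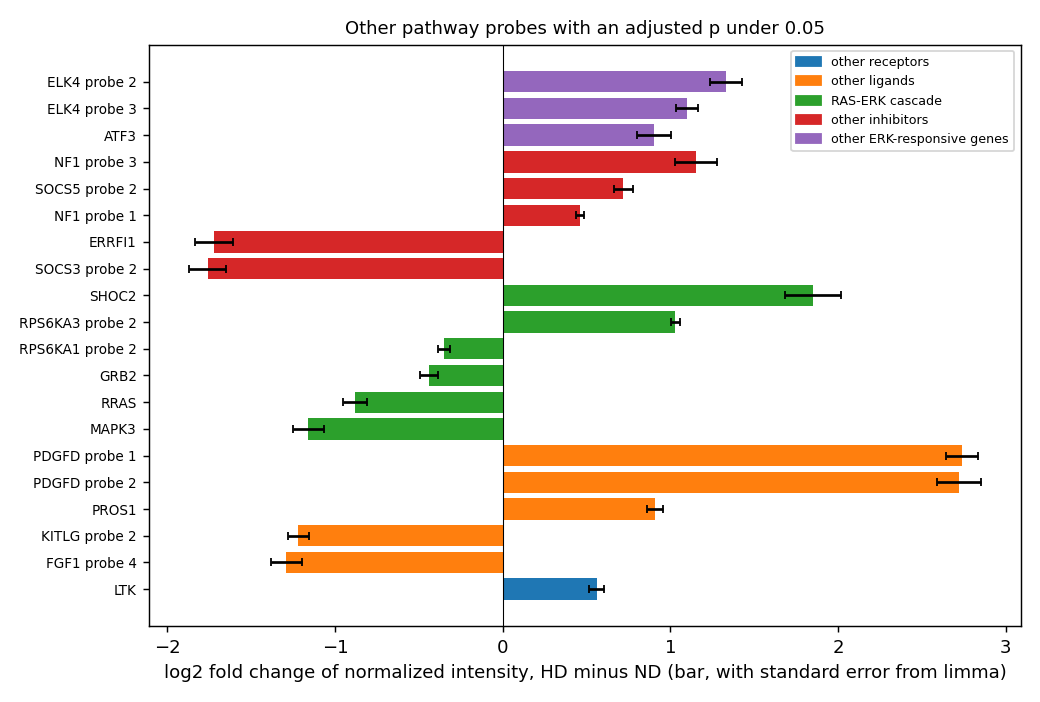
Log2 fold change of normalized intensity, HD minus ND, as bars with the standard error from limma, for the 20 probes of other pathway genes with an adjusted p under 0.05, coloured by list. The bars below 0 reached -1.76 for SOCS3. The bars of PDGFD probe 1 and NF1 probe 1 rest on ND values at or near 50. The FGF1 bar rests on HD values at or near 50, and the lengths of these bars are not exact.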

How the data were processed

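Total RNA (1 µg per array) of HD and ND cells was hybridised to Human Whole Genome OneArray slides, 2 arrays per group. The authors deposited normalized intensity values, which the methods describe as centred at the 75th percentile in Rosetta Resolver. The deposited columns share a median of 361 instead, and no value lies below 50. How background was corrected was not stated in the sources used here. The number of arrays limits the precision.

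The log2 of these values was taken once. The contrast HD minus ND was fitted to all 28264 probes in limma 3.58.1 (lmFit, eBayes; R 4.3.3), with no block and with Benjamini-Hochberg adjustment (2 residual and 0.543 prior degrees of freedom). Probe symbols came from the platform annotation, and every probe of a gene was kept. A probe at 50 on both arrays of 1 group has only a bound there, and its fold is that of the mean log2 values against 50. The members and lists were chosen with earlier results of these data known, so no list test was made. Named in full were members with a probe at an adjusted p under 0.05, then those meeting only the study's criteria. Other members are given as values chosen after they were seen. Of the other lists, up to 4 such genes each were named, and PTPN11 was added after its values were seen. The alternatives covered normalization, a pseudocount of 50, a filter on dim probes, the variance model, a block by replicate number, each array left out and the probe taken for a gene. Upstream sequences are from RefSeq, GRCh38.p14, and 40 of 51 members matched.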

Additional observations from a re-analysis of the deposited data

How the results depend on the processing

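The 16 member probes called by limma (adjusted p under 0.05) kept their direction under every alternative in which they were tested, and the number of calls did not. Against 6 higher and 10 lower member probes, cyclic loess normalization gave 17 higher and 15 lower, and a common 75th percentile gave 16 and 15, with 31.5% and 33.5% of all probes called there against 13.8% with the deposited values. With only the 20784 probes above 100 on at least 2 arrays, 18 were higher and 14 lower, 50.6% of those probes were called, and the prior degrees of freedom rose from 0.543 to 53.2. Robust eBayes left 1 higher and 4 lower, with 2.00% of all probes called. Without any 1 array, the counts at an adjusted p ran from 0 to 0 in each direction, and no probe of the array passed. By the study's criteria, leaving out an array gave 6 to 7 higher and 6 to 8 lower probes. Taking the probe with the highest mean log2 intensity for each gene left 4 lower at an adjusted p and 3 lower by the study's criteria, and leaving out the probes of NRG1 (chosen after seeing the data) left 5 and 3. With 50 added before the log2, 5 probes were higher by the study's criteria. The cause of these shifts was not tested further.

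The class medians were small. The receptor median of -0.06 was 0.02 after cyclic loess normalization and 0.12 with the probe of highest mean log2 intensity per gene, and that of the immediate early genes moved from 0.08 to 0.18 after cyclic loess. Without 1 array, the medians ran from -0.15 to 0.08 for receptors, 0.06 to 0.21 for ligands, -0.20 to 0.03 for feedback inhibitors and 0.01 to 0.17 for immediate early genes.

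With the replicate number as a block, 0 member probes were higher and 0 lower at an adjusted p, and no probe of the array had an adjusted p under 0.142 from limma. The numbers are not known to pair the samples. Deviations of same-numbered arrays from their group means correlated at -0.323 over 21966 probes, and with the crossed pairing (chosen after seeing the data) 0 were higher and 0 lower.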

Other observations

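Some receptor probes differed more between the 2 ND arrays than between the groups. The probes for KDR, PDGFRA and FLT1 and the third probe for ERBB3 were 2.38-fold, 2.69-fold, 2.79-fold and 2.29-fold higher on ND replicate 1 than on ND replicate 2, the FLT1 value being that of probe PH_hs_0049408. KDR, the main VEGF receptor of endothelium, gave 164 and 69.0 in ND and 51.0 and 61.9 in HD cells, and its log2 fold change of -0.92 (adjusted p = 0.390 from limma) ran from -1.55 to -0.30 as each array was left out. Over all 28264 probes, 1051 differed at least 2-fold between the ND arrays, and ND replicate 1 was the higher in 1009 of them. Between the HD arrays 464 probes did so, and PDGFRA was the 1 member probe among them.

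Epithelial markers also changed in both directions. EPCAM, an adhesion molecule of epithelium, rose from 378 and 360 to 1767 and 1469 (log2 fold change 2.13, adjusted p = 0.0343 from limma), while KRT19 fell from 665 and 737 to 345 and 297 (log2 fold change -1.13, adjusted p = 0.0443 from limma).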
